A study of Gallus gallus with 3 samples.

Results

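The genes described here encode the metzincin proteases of the MMP, ADAM and ADAMTS families, the ADAMTS-like proteins, and the inhibitors TIMP, RECK and TFPI2. They were chosen by symbol alone from the platform annotation of the Affymetrix chicken genome array, which names 52 of them among 13009 genes. These 52 genes carry 125 probe sets, and where a gene has several, the one with the highest log2 signal averaged over the arrays stands for it. Neural crest cells (NCC) of White Leghorn chicken embryos were selected by the HNK1 surface epitope from dissociated tissue pooled over many embryos, and some cells other than crest carry this epitope too. The HH9 array holds cranial NCC according to the study's methods, from heads cut between hindbrain and midbrain, although its source label names the trunk. The other 2 arrays hold trunk NCC, from somite levels where crest migrates at HH16 and begins to condense into dorsal root ganglia at HH19 (HH numbers are the Hamburger and Hamilton stages of the chick). Between the HH9 array and the trunk arrays, stage and body level cannot be told apart. The trunk labels contradict each other. The HH16-titled array carries HH19 in its age field, and the HH19-titled array carries HH16. Here the arrays keep their titles as names, as the HH16-titled array and the HH19-titled array, and which stage each holds is an open point of the labels. With 1 array per stage there is no replicate check, and no p-value was computed. The methods describe replicate collections per stage but do not say how they map to the 1 array deposited for each.

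Metzincins are zinc proteases that work outside the cell or at its surface. MMPs cleave collagens, laminins and fibronectin, ADAMs cut the outer part of transmembrane proteins free, and ADAMTS enzymes cleave proteoglycans such as versican or trim procollagens. TIMPs block the active site of these enzymes, RECK is an inhibitor anchored in the membrane, and TFPI2 is a Kunitz-type inhibitor of serine proteases. In the chick, gelatinases and ADAM10 are known for their part in the detachment of crest cells from the neural tube, where ADAM10 cleaves N-cadherin.

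Array values are MAS5 signals, linear and not log. A signal under 99.8, the 40th percentile of all signals, was raised to this floor. A ratio in which 1 of the arrays is under it gives only a lower bound, marked by "at least" in the text, and a gene under the floor on both arrays has no ratio. Signals of different genes are not ranked, because probe sets differ in brightness. Ratios were formed as HH9 over HH16-titled, HH9 over HH19-titled and HH16-titled over HH19-titled. The first 2 share the HH9 array. Read by the titles, the last ratio runs opposite to the study's HH19 over HH16, and read by the age fields it runs the same way.

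The 3 arrays were scaled alike, with a median of 141 on the HH9 array, 158 on the HH16-titled array and 152 on the HH19-titled array. The neural crest factor SOX10 had MAS5 values of 12315, 15746 and 17338 on the same arrays in this order. Of 9 neural crest markers 9, 8 and 9 lay at or above the floor. Their signals summed to 36426, 34382 and 35640, and without SOX10 to 24112, 18636 and 18302. At HH9, 5 of the 9 were higher than on the HH16-titled array and 4 were lower. Only SOX9, SNAI2 and ETS1 were past 2-fold there, higher at HH9 by at least 4.05-fold, 3.79-fold and 2.20-fold. The SOX9 value is a bound because its signal on the HH16-titled array was under the floor. Markers of other cells were present too. The summed signal of 5 neuronal genes was 5720 on the HH9 array, 25134 on the HH16-titled array and 7464 on the HH19-titled array, with 4, 5 and 5 of them at or above the floor. For 3 neural tube genes the sums were 657, 1039 and 4141, with 2, 3 and 3 at or above the floor. For 6 sclerotome and cartilage genes they were 17466, 7106 and 9663, with 6, 4 and 5 at or above the floor. For 7 endothelial genes they were 1239, 1503 and 1667, with 6 at or above the floor on each array. For 6 somite and muscle genes they were 673, 973 and 1008, with 1, 3 and 2 at or above the floor, and for 5 macrophage and blood genes 719, 1483 and 973, with 2, 4 and 4. For 4 ectoderm and epithelium genes they were 2347, 1910 and 2255, with 4 at or above the floor on each array. In bulk RNA, fewer cells of a type and less RNA per cell cannot be told apart.

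Of the 52 genes, 42 reached the floor on at least 1 array (80.8%, against 84% of all named genes). On all 3 arrays 29 of the 52 did so, a smaller share than the 9322 of all 13009 named genes. By array, 34 of the 52 reached it on the HH9 array, 36 on the HH16-titled array and 36 on the HH19-titled array. The ADAM and ADAMTS families were mostly above the floor, with 11 of 13 ADAMs, 16 of 17 ADAMTS genes and 2 of 3 ADAMTS-like genes. All 5 inhibitors reached it on at least 1 array. Of the 14 MMPs, 8 did. The plot of signals by gene shows this split.

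**Figure D1:**
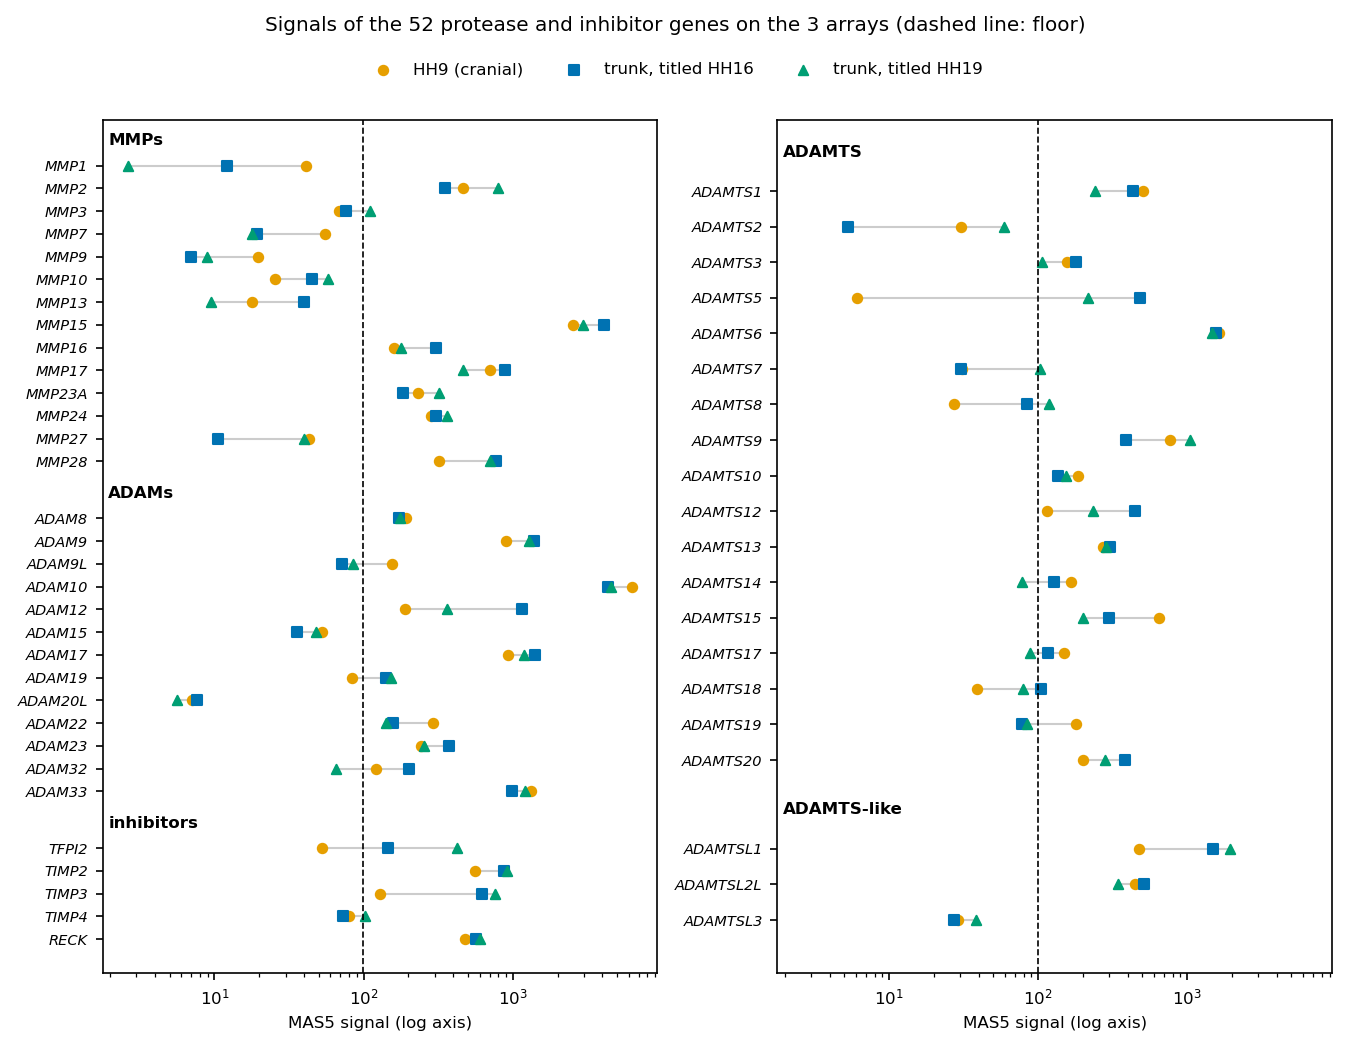
MAS5 signal (log axis) of each of the 52 genes on the HH9 array (circle), the HH16-titled array (square) and the HH19-titled array (triangle), 1 array each, with genes grouped by family and the floor of 99.8 as a dashed line. The 10 genes whose 3 points all lie left of the line include 6 MMPs, and ADAMTS5 has its HH9 point far left of its trunk points.

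Protease and inhibitor genes past 2-fold against the HH9 array were more often brighter than dimmer on a trunk array, and all named genes shared this direction. Of all named genes, 727 were lower and 342 higher in HH9 over HH16-titled. In HH9 over HH19-titled, 568 were lower and 275 higher. In HH9 over HH16-titled, 6 of 38 genes with a ratio were lower by 2-fold or more on the HH9 array, where 6.8% of all named genes with a ratio were, and 1 was at least 2-fold higher, where 3.2% were. In HH9 over HH19-titled, 6 of 41 were lower, against 5.34% of all named genes, and 3 were higher, against 2.58%. Between the trunk arrays, 3 of 40 were higher by 2-fold or more on the HH16-titled array, against 1.93% of all named genes, and 3 were at least 2-fold lower, against 1.54%. The genes were not matched to the others on signal, so these shares are a description. When each array was centred on its median, which moved the median of all genes by 0.15 (log2), the counts in HH9 over HH16-titled were 3 higher and 6 lower, and those of all named genes were 501 and 586 in place of 342 and 727. The median log2 ratio of the protease and inhibitor genes was -0.20 in HH9 over HH16-titled, -0.14 in HH9 over HH19-titled and 0.08 in HH16-titled over HH19-titled. Over all named genes the same medians were 0.01, -0.00044 and -0.02.

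**Figure D2:**
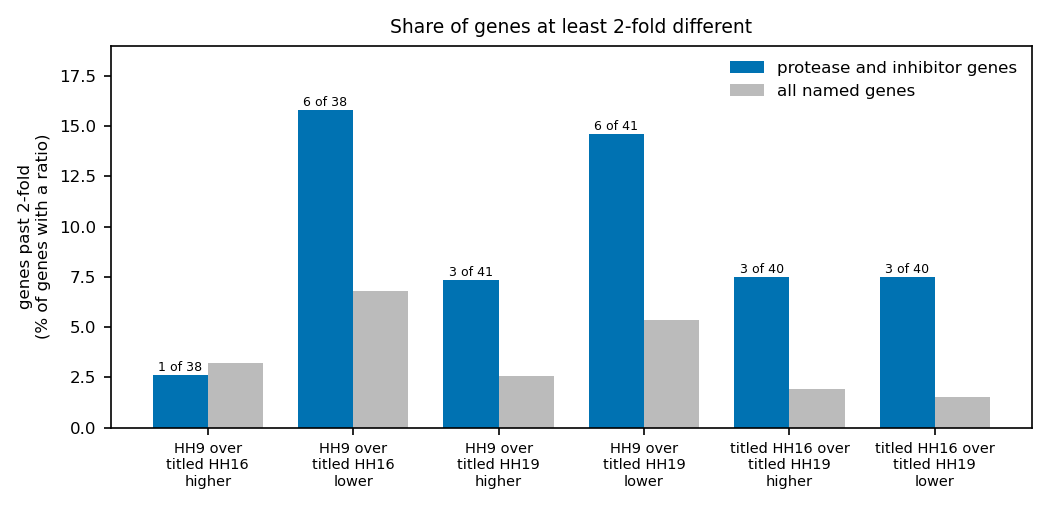
Percent of genes with a ratio that were at least 2-fold higher or lower in each of the 3 comparisons, for the protease and inhibitor genes (blue, with counts) and for all named genes (grey). The blue bar is taller in 5 of the 6 pairs, and with 1 to 6 genes behind each blue bar and no replicate arrays this is a description only.

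Among the secreted MMPs, the interstitial collagenases and the stromelysins lay mostly under the floor. MMP1, MMP13, MMP3, MMP10, MMP7 and MMP27 are neighbours on chromosome 1, with 0 other coding genes between any adjacent pair in the RefSeq annotation of assembly GRCg7b. Of these 6 genes, 5 lay under the floor on all 3 arrays, and only MMP3 reached it, with 67.9 on the HH9 array, 76.2 on the HH16-titled array and 109.6 on the HH19-titled array. MMP9, the larger gelatinase, was also under the floor throughout, with 19.7, 6.99 and 8.87 on these arrays.

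MMP2, the other gelatinase, was above the floor on every array. Its signals were 462 on the HH9 array, 351 on the HH16-titled array and 797 on the HH19-titled array. It was 2.27-fold lower on the HH16-titled array than on the HH19-titled array, and the HH9 signal lay between them. MMP2 has 1 probe set, so no other probe set of the gene can be set beside it. The call held under the 7 alternatives of scaling, floor and probe set choice that were run, with log2 ratios from -1.27 to -1.18.

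MMP28 (epilysin), a secreted MMP expressed in many adult tissues, was dimmer at HH9 than on both trunk arrays. Its signals were 319.5 on the HH9 array, 769.6 on the HH16-titled array and 703 on the HH19-titled array. This is 2.41-fold lower at HH9 than on the HH16-titled array and 2.20-fold lower than on the HH19-titled array. A second probe set of MMP28 gave 2.60-fold and 2.02-fold in the same direction. Between the trunk arrays MMP28 differed by 1.10-fold.

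The MMPs held in the membrane stayed under 2-fold in every comparison by the probe sets used, and a second probe set of MMP15 was 2.03-fold lower at HH9 than on the HH16-titled array. MMP15 (MT2-MMP) had MAS5 values of 2543 on the HH9 array, 4070.5 on the HH16-titled array and 2969 on the HH19-titled array. MMP16 (MT3-MMP) had 159, 307 and 178 on the same arrays, and MMP17 (MT4-MMP), which is anchored by a lipid, had 699, 882 and 466. All 3 were highest on the HH16-titled array, by 1.37-fold, 1.73-fold and 1.89-fold over the HH19-titled array. For MMP16 and MMP17 another probe set ran the other way between the trunk arrays, so their direction depends on the probe set. MMP24 (MT5-MMP), known from neurons, had 284, 308 and 360.03. Another probe set of MMP24 was under the floor on the HH16-titled array. It was at least 1.65-fold lower there than on the HH9 array and at least 1.98-fold lower than on the HH19-titled array. MMP23A had 232, 183 and 319, which is 1.74-fold lower on the HH16-titled array than on the HH19-titled array, while 1 of its 3 other probe sets was 1.20-fold higher there.

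Of the 40 genes with a ratio between the trunk arrays, ADAM12 differed most. ADAM12 is a sheddase of muscle and mesenchyme that is linked to cell fusion and adhesion. Its signals were 189 on the HH9 array, 1158 on the HH16-titled array and 362 on the HH19-titled array. The HH16-titled array stands above both others. ADAM12 was 6.11-fold lower at HH9 than on the HH16-titled array, and 3.20-fold higher on the HH16-titled array than on the HH19-titled array. Against the HH19-titled array, the HH9 array was 1.91-fold lower.

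The other probe sets of ADAM12 bear on this directly. Of its 5 probe sets, 4 had a ratio. All 4 were lower by 2-fold or more at HH9 than on the HH16-titled array, and all 4 were higher on the HH16-titled array than on the HH19-titled array, by 2.36-fold to 4.63-fold. Against the HH19-titled array, 3 of the 4 were lower at HH9, by 1.91-fold, at least 1.61-fold and at least 1.41-fold, and 1 was 1.03-fold higher. Probe sets of a gene read the same RNA and are not replicates. The 5 neuronal genes were also brightest on the HH16-titled array, and their part in the ADAM12 difference was not tested.

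The general sheddases differed little. ADAM10, which cuts cadherins and Notch, had MAS5 values of 6336 on the HH9 array, 4388 on the HH16-titled array and 4598 on the HH19-titled array, and its ratios by this probe set stayed within 1.44-fold. ADAM17, the sheddase of growth factor precursors, had 932, 1404 and 1192. ADAM9 had 902, 1397 and 1277. ADAM33, which RefSeq also lists as ADAM13, a crest protease of Xenopus, had 1332, 984 and 1208, and its ratios stayed within 1.35-fold. ADAM8 stayed within 1.12-fold. ADAM19 was near the floor, with 84.1 on the HH9 array, 142 on the HH16-titled array and 152 on the HH19-titled array. ADAM15 and ADAM20L lay under the floor throughout, and ADAM9L reached it only on the HH9 array, with a signal of 154.

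Among the ADAMs that lack a catalytic motif in mammals, ADAM22 and ADAM23 are receptors for LGI proteins at synapses. ADAM22 had MAS5 values of 292 on the HH9 array, 157 on the HH16-titled array and 142 on the HH19-titled array, and was 2.06-fold higher at HH9 than on the HH19-titled array. A second probe set of ADAM22 gave 1.35-fold in the same direction. By the probe set used, ADAM22 was 1.86-fold higher at HH9 than on the HH16-titled array. There its log2 ratio was 1.05 after centring and 1.07 after quantile normalization. With the floor at the 60th percentile, both trunk signals were under it, and the log2 ratio against each was a bound of 0.31. ADAM23 had 243, 372 and 256. ADAM32, a gene known from testis, had 121.5 on the HH9 array, 202 on the HH16-titled array and 65.7 on the HH19-titled array, which made it at least 2.03-fold higher on the HH16-titled array. That bound sat at the threshold. As a log2 ratio it was 0.95 after centring, 0.94 after quantile normalization and 0.29 with the median over its probe sets. With the floor at the 20th percentile or with no floor, the HH19-titled signal was above the floor and the log2 ratio was 1.62.

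The ADAMTS proteoglycanases, which cleave versican and aggrecan, went in different directions. ADAMTS15 was brightest on the HH9 array, with 645 there, 297 on the HH16-titled array and 200.3 on the HH19-titled array. It was 2.17-fold higher at HH9 than on the HH16-titled array and 3.22-fold higher than on the HH19-titled array. Of the 4 probe sets of ADAMTS15, 3 were higher by 2-fold or more at HH9 than on each trunk array, by 2.17-fold to 4.35-fold over the HH16-titled array, and over the HH19-titled array by 3.22-fold, at least 5.42-fold and at least 5.72-fold. The remaining probe set, with a signal of 125 on the HH16-titled array and under the floor on the others, was lower on the HH9 array by at least 1.25-fold. ADAMTS8, the neighbour of ADAMTS15 on chromosome 24, reached the floor only on the HH19-titled array, with a signal of 118.

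ADAMTS5, the aggrecanase of cartilage, ran the opposite way. Its signals were 6.09 on the HH9 array, 483 on the HH16-titled array and 214.7 on the HH19-titled array. It was thus at least 4.83-fold lower at HH9 than on the HH16-titled array and at least 2.15-fold lower than on the HH19-titled array. Between the trunk arrays ADAMTS5 was 2.25-fold higher on the HH16-titled array. These calls held under the 7 alternatives where a ratio existed, but ADAMTS5 has a single probe set.

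ADAMTS1 and ADAMTS5 are direct neighbours on chromosome 1. ADAMTS1 had MAS5 values of 502 on the HH9 array, 436 on the HH16-titled array and 241 on the HH19-titled array. It was 2.08-fold higher at HH9 than on the HH19-titled array, and its other probe set gave 2.56-fold. In HH16-titled over HH19-titled the probe set used for ADAMTS1 was 1.81-fold higher and the other was 3.03-fold higher. So both neighbours were higher on the HH16-titled array than on the HH19-titled array, whereas at HH9, relative to both trunk arrays, ADAMTS5 was lower and ADAMTS1 was not.

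ADAMTS9, a secreted versican-cleaving enzyme, was dimmest on the HH16-titled array. Its signals were 771 on the HH9 array, 389 on the HH16-titled array and 1048 on the HH19-titled array. It was 2.70-fold lower on the HH16-titled array than on the HH19-titled array, and 1.98-fold higher at HH9 than on the HH16-titled array, just under the threshold. Of its 9 probe sets, 7 had a ratio between the trunk arrays, all 7 ran the same way, and 2 were past 2-fold. With the median over its probe sets, the log2 ratio of ADAMTS9 between the trunk arrays was -0.89. This is a bound, because that median was under the floor on the HH16-titled array. The log2 ratio was -0.70 without probe sets that may bind several transcripts, so the 2-fold call depends on the probe set. In HH9 over HH16-titled, 6 probe sets of ADAMTS9 had log2 ratios from -0.32 to 1.15. There its log2 ratio was 1.15 after centring, 1.10 after quantile normalization and at least 0.17 with the median over its probe sets. ADAMTS20, which mouse melanoblasts need to spread through the skin, had 199, 383 and 283 on the HH9 array, the HH16-titled array and the HH19-titled array. It was 1.93-fold lower at HH9 than on the HH16-titled array. Its other probe sets with a ratio there were under the floor at HH9. They gave at least 1.02-fold and at least 1.21-fold in the same direction.

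ADAMTS12, which cleaves a cartilage matrix protein, was dimmer on the HH9 array. Its signals were 115 on the HH9 array, 447 on the HH16-titled array and 233 on the HH19-titled array. It was 3.89-fold lower at HH9 than on the HH16-titled array and 2.03-fold lower than on the HH19-titled array. The other 2 probe sets of ADAMTS12 gave at least 2.22-fold and 2.85-fold against the HH16-titled array, and at least 1.68-fold and 2.20-fold against the HH19-titled array. The second call was lost after centring, at a log2 ratio of -0.91, and after quantile normalization, at -0.92. The first was -0.93 with a floor at the 60th percentile, a bound because the HH9 signal was under that floor.

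The remaining ADAMTS genes gave no 2-fold difference. ADAMTS6 was nearly level, with 1644 on the HH9 array, 1548 on the HH16-titled array and 1473 on the HH19-titled array. ADAMTS13, the von Willebrand factor protease, had 272, 301 and 284, and ADAMTS10 had 186, 136 and 153. ADAMTS19, ADAMTS17 and ADAMTS14 were at 179, 149 and 166 on the HH9 array, with at least 1 trunk array under the floor for each. ADAMTS7 and ADAMTS18 reached the floor on a single trunk array, at 103 on the HH19-titled array and 104 on the HH16-titled array. Of the procollagen N-proteinases, ADAMTS2 was under the floor throughout and ADAMTS3 had 157, 179 and 106, and its probe sets with a ratio ran in both directions in the comparisons with the HH19-titled array.

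ADAMTSL1 (punctin), which resembles ADAMTS enzymes but has no protease domain, was dimmer on the HH9 array. Its signals were 478 on the HH9 array, 1494 on the HH16-titled array and 1945 on the HH19-titled array. The difference was 3.12-fold lower at HH9 than on the HH16-titled array and 4.07-fold lower than on the HH19-titled array. The other 2 probe sets with a ratio gave 1.92-fold and at least 1.55-fold against the HH16-titled array, and 1.64-fold and at least 2.25-fold against the HH19-titled array. All ran the same way. The median over its 5 probe sets was under the floor on the HH9 array. It gave log2 ratios of -0.63 and -0.79, which are bounds that stop short of 2-fold. ADAMTSL2L had 444, 512 and 341 by the probe set used. Its second probe set was at least 2.57-fold higher on the HH16-titled array than on the HH19-titled array. ADAMTSL3 lay under the floor throughout.

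By the probe sets used, every inhibitor with a ratio was dimmer at HH9 than on the trunk array compared, and TIMP3 and TFPI2 were past 2-fold. TIMP3 binds the matrix and inhibits ADAMs as well as MMPs. Its signals were 129 on the HH9 array, 627 on the HH16-titled array and 756 on the HH19-titled array. TIMP3 was 4.86-fold lower at HH9 than on the HH16-titled array and 5.87-fold lower than on the HH19-titled array, whereas the trunk arrays differed by 1.21-fold. It has 1 probe set, and the calls held under the 6 alternatives that gave a ratio.

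TFPI2 was dimmest on the HH9 array and brightest on the HH19-titled array. Its signals were 52.7 on the HH9 array, 146 on the HH16-titled array and 422 on the HH19-titled array. It was at least 4.22-fold lower at HH9 than on the HH19-titled array and 2.89-fold lower on the HH16-titled array than on the HH19-titled array. Against the HH16-titled array, the HH9 array was at least 1.46-fold lower. TFPI2 has 1 probe set and lies near the floor. When the floor was put at the 60th percentile, the HH9 and HH16-titled signals were both under it. The log2 ratios against the HH19-titled array were then the same bound, -0.84. With the floor at the 20th percentile or with no floor, the log2 ratio of TFPI2 in HH9 over HH16-titled was -1.47.

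The other inhibitors were under 2-fold. TIMP2, which inhibits MMP2 and also takes part in its activation, had MAS5 values of 558 on the HH9 array, 872 on the HH16-titled array and 922 on the HH19-titled array, with log2 ratios of -0.64 and -0.72 for HH9 over the trunk arrays. RECK had 477, 571 and 602, with log2 ratios of -0.26 and -0.34, and its second probe set had 503, 498 and 482, which is level. TIMP4 was close to the floor, with 80.3 on the HH9 array, 73.1 on the HH16-titled array and 102 on the HH19-titled array. These ratios of TIMP2 and RECK kept their sign after centring and after quantile normalization. Without probe sets whose names end in s, x or a, the log2 ratios of RECK were 0.02 and 0.06, of the other sign. A second probe set of TIMP2 was under the floor on every array.

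**Figure D3:**
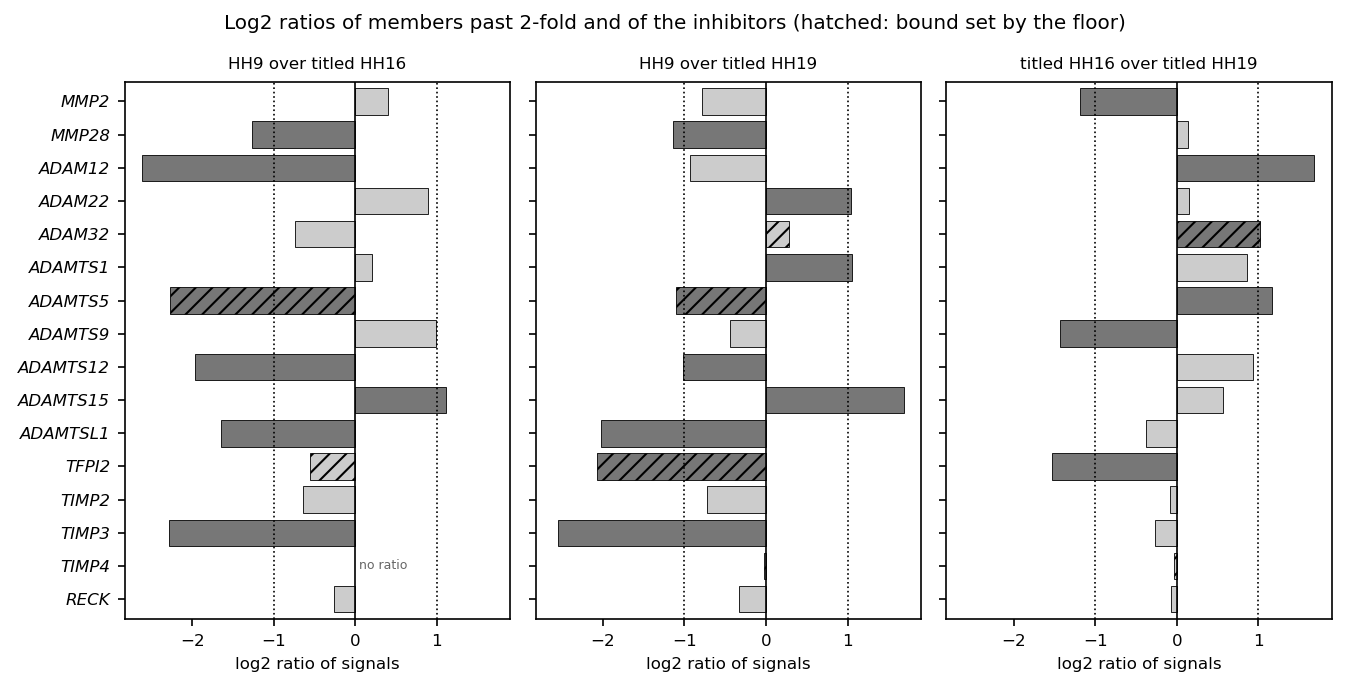
Log2 ratios (bars) of the genes past 2-fold in any comparison and of the inhibitors, in HH9 over HH16-titled, HH9 over HH19-titled and HH16-titled over HH19-titled, 1 array each. Dark bars are past the dotted 2-fold lines and hatched bars are bounds set by the floor, and TIMP3 reaches -2.28 and -2.55 in the HH9 panels but -0.27 between the trunk arrays.

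The patterns of the 13 genes past 2-fold fell into a few kinds by their values. ADAMTS5, ADAMTS12, ADAMTSL1, MMP28 and TIMP3 were lower at HH9 than on each trunk array, and ADAMTS15 was higher. Of the 10418 named genes with both ratios, 407 were lower by 2-fold or more at HH9 than on each trunk array and 168 were higher. Among the marker lists, the neuronal, neural tube, endothelial and blood sums were also lowest on the HH9 array, with or without the brightest gene of each list. The endothelial genes were split against each trunk array taken alone, with 3 of 7 higher and 4 lower at HH9, but not the same genes. CDH5 was higher at HH9 than on the HH16-titled array and lower than on the HH19-titled array, and PECAM1 the reverse. The median log2 ratios of the endothelial genes were -0.05 in HH9 over HH16-titled and -0.52 in HH9 over HH19-titled. The part of the cells of these lists in the differences from the HH9 array was not tested. The somite and muscle sum without DES was 638 on the HH9 array, 507 on the HH16-titled array and 468 on the HH19-titled array. The sclerotome and cartilage sum was mostly COL2A1, and without it the other 5 genes summed to 839, 593 and 903. Of the genes that separated the trunk arrays, ADAM12, ADAMTS5 and ADAM32 were higher on the HH16-titled array, while MMP2, ADAMTS9 and TFPI2 were lower on it. All 3 neural tube genes were also lower on the HH16-titled array, with log2 ratios between the trunk arrays from -2.44 to -1.53. Of the sclerotome and cartilage genes, 4 of 6 were lower on it, NKX3-2 and FOXC2 past 2-fold, and 2 were higher, MATN1 by 1.88-fold. Of the endothelial genes 3 of 7 were lower on it, CDH5 past 2-fold, and 4 were higher, with a median log2 ratio of 0.09 over the list. Of the ectoderm and epithelium genes 3 of 4 were lower on it, CDH1 past 2-fold, and 1 was higher, with a median log2 ratio of -0.40. The part of the cells of these lists in the differences of MMP2, ADAMTS9 and TFPI2 was not tested. A further 29 genes had a ratio but stayed under 2-fold by the probe sets used, and 10 had none. Of the 29 genes above the floor on all 3 arrays, 8 stayed under 1.5-fold in every comparison by the probe sets used. These were ADAM8, ADAM10, ADAM33, ADAMTS6, ADAMTS10, ADAMTS13, MMP24 and RECK, though another probe set of MMP24 was past 1.5-fold. The same count was not made over all named genes, so whether 8 is many or few is not known.

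The 13 genes gave 22 ratios past 2-fold. For 14 of these ratios more than 1 probe set had a value, and in 13 of the 14 all probe sets lay on the same side of 0, ADAMTS15 in HH9 over HH16-titled being the exception. In 11 of the 14 at least 1 other probe set was also past 2-fold. The other 8 ratios belong to ADAMTS5, MMP2, TFPI2 and TIMP3, which have 1 probe set each.

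**Figure D4:**
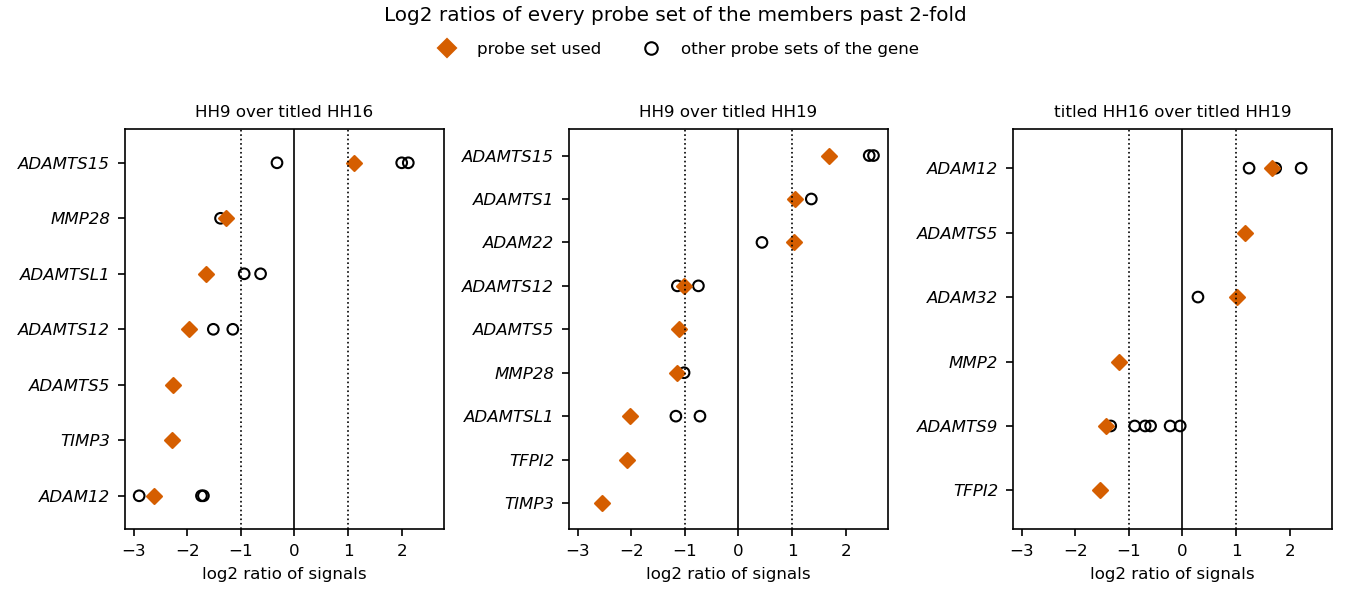
Log2 ratio of every probe set with a value for the genes past 2-fold in each comparison, with the probe set used as a filled diamond and the other probe sets of the gene as open circles. The probe sets of ADAM12 and MMP28 lie together beyond the dotted 2-fold lines, while those of ADAMTS9 spread from -1.43 to -0.04 across the 2-fold line.

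Other genes of proteolysis around the cell were taken from 7 lists of proteases, inhibitors and substrates that hold 80 named genes. Each was read from its probe set of highest averaged log2 signal, and other probe sets of these genes were not compared. In HH9 over HH16-titled, 9 of 64 with a ratio were at least 2-fold higher and 12 lower, against 3.2% and 6.8% of all named genes. In HH9 over HH19-titled, 4 of 66 were higher and 9 lower, against 2.58% and 5.34%. In HH16-titled over HH19-titled, 2 of 66 were higher and 6 lower, against 1.93% and 1.54%. Their median log2 ratios were 0.03, -0.06 and -0.0041, near those of all named genes.

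In the plasminogen system, SERPINE2, a serpin that inhibits plasminogen activators, had MAS5 values of 5218 on the HH9 array, 1626 on the HH16-titled array and 1803 on the HH19-titled array. It was 3.21-fold and 2.89-fold higher on the HH9 array, opposite in direction to TIMP3 on the same arrays. PLAU (urokinase) was at least 2.29-fold lower at HH9 than on the HH16-titled array, with a signal under the floor on the HH9 array. SERPINI1 was also lower, and the collagen chaperone SERPINH1 was 2.53-fold higher at HH9 than on the HH19-titled array. Of 7 genes of this list 6 had a ratio, and 0 were past 2-fold between the trunk arrays.

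Convertases such as FURIN cut proenzymes of MMPs and ADAMs. Among 5 convertases with a ratio, FURIN had 321, 582 and 395 on the HH9 array, the HH16-titled array and the HH19-titled array. Only PCSK6 was past 2-fold, 2.66-fold higher at HH9 than on the HH16-titled array. Of the ectopeptidases, CPZ was 2.49-fold and 2.70-fold lower at HH9 than on the HH16-titled array and the HH19-titled array, and ANPEP, dimmest on the HH16-titled array, was 3.47-fold lower on the HH16-titled array than on the HH19-titled array. Of 4 astacins and enhancers with a ratio, PCOLCE2 was higher at HH9 than on the HH16-titled array, and ASTL was lower on the HH9 array and on the HH16-titled array than on the HH19-titled array. Among the cathepsins and cystatins, CTSC alone was past 2-fold, with 983 on the HH9 array, 2206 on the HH16-titled array and 1103 on the HH19-titled array.

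Of the cell surface proteins that these enzymes are known to shed, 6 of 17 with a ratio were lower by 2-fold or more at HH9 than on the HH16-titled array, and 1 was higher, against 6.8% and 3.2% of all named genes. Against the HH19-titled array, 6 of 18 were lower and 2 higher, where 5.34% and 2.58% of all named genes were. CDH2 (N-cadherin), a substrate of ADAM10, had MAS5 values of 884 on the HH9 array, 2580.2 on the HH16-titled array and 2121 on the HH19-titled array, whereas CDH11, a substrate of ADAM13 in Xenopus, had 4694, 584 and 810 on the same arrays. The Notch ligand gene DLL1 was 10.1-fold and 12.1-fold lower on the HH9 array than on the HH16-titled and HH19-titled arrays. The adhesion genes NCAM1, NRCAM and PCDH8 were past 2-fold in the same direction against both trunk arrays, and NOTCH1 against the HH16-titled array, by 2.21-fold. Between the trunk arrays, 2 of 19 were lower on the HH16-titled array and 0 higher, against 1.54% and 1.93% of all named genes. Among 15 matrix substrates with a ratio, 4 were higher and 2 lower in HH9 over HH16-titled, 0 and 1 in HH9 over HH19-titled, and 1 and 2 in HH16-titled over HH19-titled. By the probe sets read, the chains of type I collagen ran apart. COL1A1 had values of 1330.5 on the HH9 array, 247 on the HH16-titled array and 839 on the HH19-titled array, and COL1A2 had 3786, 10879 and 4653. Other probe sets of either chain were not compared. Versican (VCAN), cleaved by ADAMTS1, ADAMTS5, ADAMTS9 and ADAMTS15, had MAS5 values of 2494 on the HH9 array, 1986 on the HH16-titled array and 1584 on the HH19-titled array, within 1.58-fold.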

How the data were processed

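The authors had total RNA of sorted NCC run on the 1-colour Affymetrix chicken genome array, and normalized, by an outside company. The deposited values are MAS5 signal intensities on a linear scale, for which the sources used here name no MAS5 version or setting. The arrays share 1 trimmed mean (2% off each end), so values are relative to that mean. The 96 control probe sets among 38535 were not used. In the remaining 38439, 27168 have 1 gene symbol, 177 several and 11094 none in the platform annotation. Symbols were those of the annotation, and 51 of the 52 gene identifiers were in RefSeq (GRCg7b).

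Signals under the floor of 99.8 were raised to it, and ratios of at least 2-fold, the fold of the study's methods, were counted. Each gene past 2-fold in any comparison, each inhibitor and the genes the study names are given in full, and others by group. All genes and lists were chosen with earlier results of these data known. Alternatives were array centring on medians, quantile normalization, a threshold of 3-fold, floors at the 20th and 60th percentile or none, omission of probe sets whose names end in s, x or a, and the median over probe sets. Counting was tested on simulated data with changes planted only in genes well above the floor. How often calls near the floor or near 2-fold are right was not measured by it. The number of arrays limits the precision. Python 3.11.15, numpy 2.4.6, pandas 2.3.3 and matplotlib 3.10.9 were used.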

Additional observations from a re-analysis of the deposited data

How the results depend on the processing

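Of the 13 genes past 2-fold, ADAM12, ADAMTS1, ADAMTS5, ADAMTS15, MMP2, MMP28 and TIMP3 kept their 2-fold calls under every alternative other than the 3-fold threshold that gave a ratio. ADAM22, ADAM32, ADAMTS9, ADAMTS12, ADAMTSL1 and TFPI2 lost at least 1 call, as given beside their values, and 0 called ratios changed sign. Most of these losses are bounds set by the floor, under which a larger difference is not excluded. The exceptions are ADAMTS9 without probe sets that may bind several transcripts, and ADAMTS12 after centring and quantile normalization. In HH9 over HH16-titled, the count of genes higher on the HH9 array was 3 after centring, 3 after quantile normalization, 3 for a floor at the 20th percentile, 8 with no floor and 0 at 3-fold, in place of 1, and the count of lower genes was 10 with no floor in place of 6. The shares of all named genes were 4.67%, 3.88%, 4.94%, 6.69% and 1.05% for these higher counts, in place of 3.2%, and 10.9% lower with no floor, in place of 6.8%. In HH9 over HH19-titled, the higher count was 5 for a floor at the 20th percentile, 8 with no floor and 1 at 3-fold, in place of 3, where all named genes gave 4.58%, 6.73% and 0.639%, in place of 2.58%. The lower count was 3 for a floor at the 60th percentile, 10 with no floor and 3 at 3-fold, in place of 6 (all named genes 3.94%, 9.37% and 1.9%, in place of 5.34%), and the median log2 ratio was -0.34 at that higher floor. In HH16-titled over HH19-titled, the higher count was 5 with no floor and 1 at 3-fold, and the lower count was 6 with no floor and 0 at 3-fold, in place of 3 each, with 6.39% and 0.459% of all named genes higher and 5% and 0.449% lower, in place of 1.93% and 1.54%. With no floor, all 52 genes have a ratio and signals near background enter it. No paired analysis was possible because each group holds 1 array. With 1 array per stage, array-to-array error was not measured.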
